A study of Mus musculus with 16 samples.

Results

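The genes described here are 43 mRNAs of the cell cycle machinery, chosen by symbol as a panel of cyclins, cyclin-dependent kinases, replication factors, mitotic genes and kinase inhibitors. All 43 were found among the 21878 mRNAs of the deposited tables, and 42 had enough reads to be tested. The study compared RNA from sorted brain microglia of mice with experimental autoimmune encephalomyelitis (EAE), an immune-mediated model of multiple sclerosis, with that of PBS-treated mice. Each group held 8 libraries, 1 per mouse, and all 16 mice were wild-type female C57BL/6 animals, 8 weeks old. EAE mice had received a myelin oligodendrocyte glycoprotein peptide (MOG) in complete Freund's adjuvant together with pertussis toxin (200 ng), and control mice had received PBS, so the effects of peptide, adjuvant and toxin cannot be told apart. The treatment label gives the peptide as residues 35 to 55 in EAE 1, and its last residue then rises by 1 per mouse to 62 in EAE 8, whereas the study's methods give 35 to 55 throughout. Brains were taken at peak disease, and cells were sorted as CD11b+/CD45int.

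The cell cycle is driven by cyclins, which are made and destroyed in turn, and by the kinases they activate. D-type cyclins with Cdk4 or Cdk6 begin to inactivate the retinoblastoma protein in G1, and cyclin E with Cdk2 completes this step, which releases E2F factors and their S phase targets. Cyclin A and cyclin B with Cdk1 then carry the cell through G2 and mitosis, while inhibitors of the Cip/Kip and Ink4 families restrain the kinases. Microglia divide slowly in the healthy brain and can proliferate during neuroinflammation.

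Counts per library ranged from 24587443 to 30244215 in EAE and from 26031889 to 34184576 in PBS. The 12 microglia markers examined were all detected, but their summed level (96.5 to 179 FPKM, read counts divided by transcript length and library total) was far below that of 7 neuronal markers (741 to 976 FPKM) and of 6 astrocyte markers (827 to 1200 FPKM) in the same libraries. The label "microglia" is therefore used here only as the name of the sorted fraction. Because these were bulk samples, a change in the number of cells of a type and a change in RNA per cell cannot be told apart. EAE 6, EAE 7 and EAE 8 were more alike than other EAE libraries, and so were PBS 5, PBS 7 and PBS 8 among the controls. No label names these sets of libraries, which were taken from the likeness of library profiles in earlier results, and some values within them are given beside the pooled value. Within the 6 libraries most alike, 24.1% of all mRNAs passed the adjusted test, and within the other 10, 0.0745% did (0.0458% higher and 0.0286% lower). The difference between the sets was not tested. Over all 17885 mRNAs tested, the quasi-likelihood test of edgeR, with p values adjusted by Benjamini-Hochberg, called 118 higher and 315 lower in EAE at an adjusted p under 0.05. When libraries were scaled by their totals alone, this split was 226 higher and 103 lower. The TMM scaling factors of the edgeR fit ran from 1.005 to 1.032 in EAE and from 0.9601 to 0.9973 in PBS. FPKM values carry no such factor, so counts of EAE libraries above PBS libraries in FPKM lean towards EAE.

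Averaged over the 16 libraries, the highest FPKM levels were those of Cdk4 (19.7), the G1 kinase, Cdkn1a (18.4), which encodes the inhibitor p21, Pcna (17.9), the sliding clamp of DNA polymerase, and Ccnd2 (11.3), a D-type cyclin. These genes lay between the 69.2 and 82.9 percentiles of the mRNAs tested. The 12 genes of mitosis averaged between 0.0807 FPKM for Bub1, a kinase of the spindle checkpoint, and 1.44 FPKM for Bub1b. Cdk1, the mitotic kinase, averaged 0.133 FPKM, at the 9.9 percentile. Some genes of G1 and DNA synthesis lay within the same range, such as Cdk6 (0.974), Rrm2 (0.822) and Tyms (0.878).

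**Figure D1:**
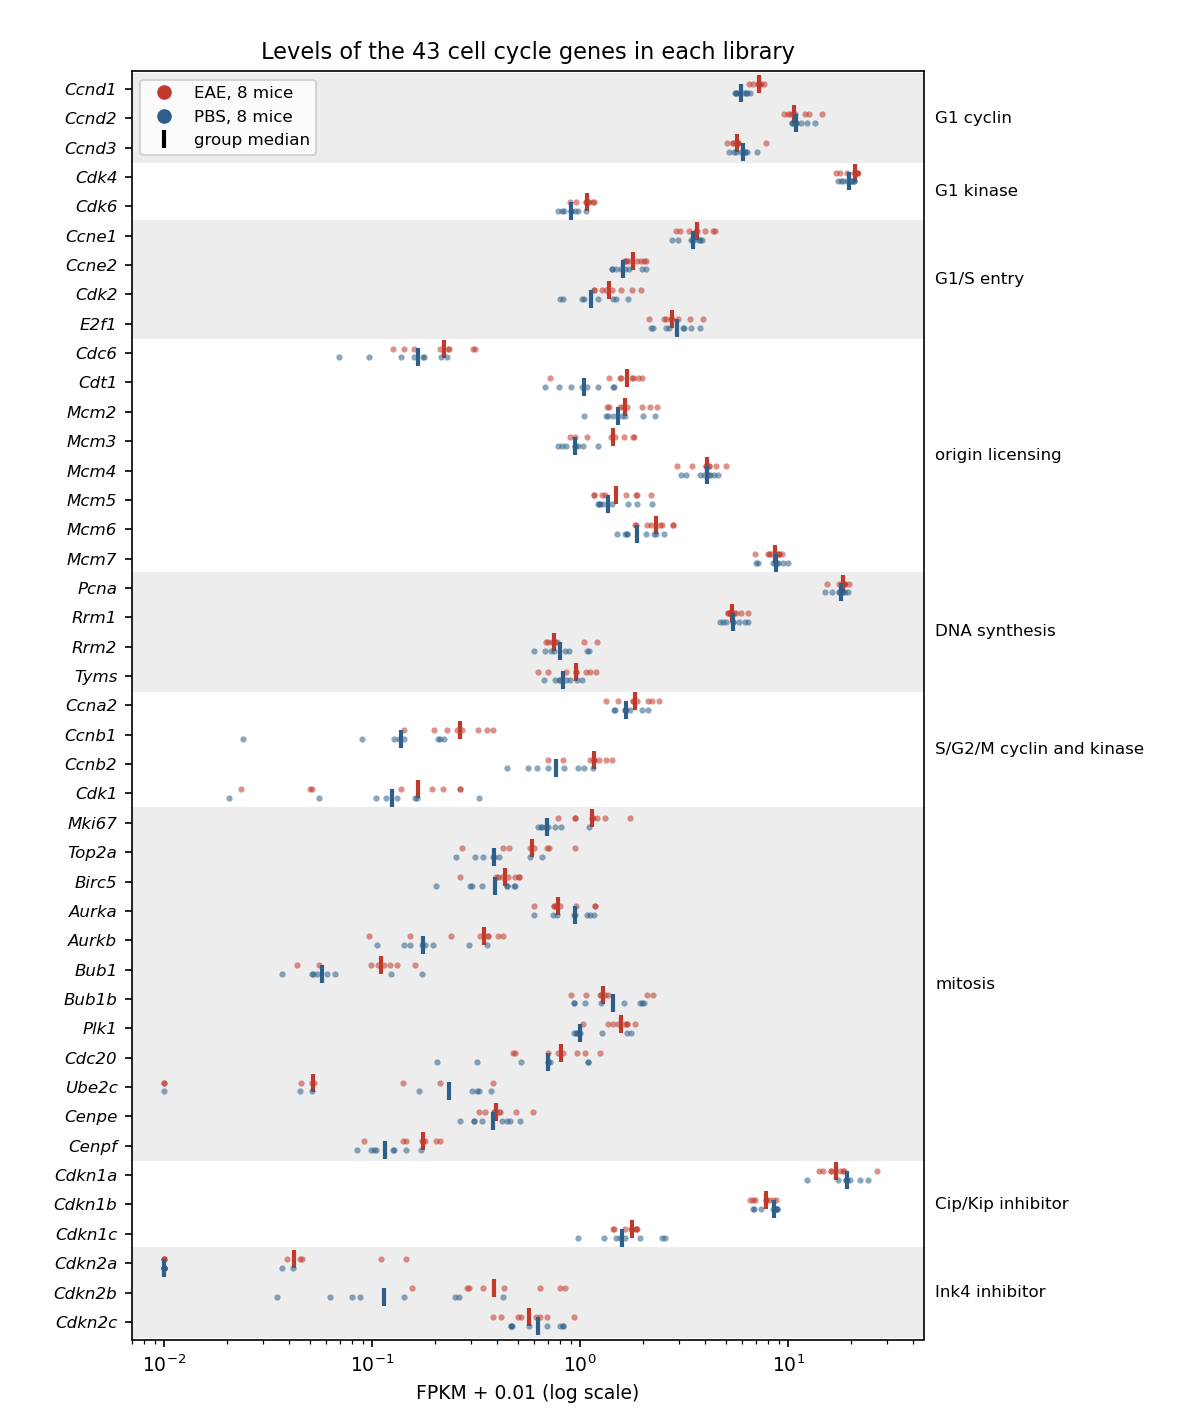
Level of each of the 43 genes in every library, as FPKM + 0.01 on a logarithmic axis, with EAE libraries in red, PBS libraries in blue and a vertical tick at each group's median. Genes are grouped by role, and the 8 EAE and 8 PBS libraries overlap for every gene.

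Only 1 of the 42 genes tested passed an adjusted p of 0.05, and it was higher in EAE: Mki67, the gene of the proliferation marker Ki-67. Over all mRNAs tested, 2.42% were called in either direction, 0.66% higher and 1.76% lower in EAE. In this edgeR fit, no cell cycle gene was called lower. None passed the study's stricter rule of an adjusted p under 0.05 with an absolute log2 fold change over 1, which 0.117% of all mRNAs passed. The study itself reported more mRNAs under its rule, and Cdkn2b was among those it selected. The reason for the difference was not tested. At an unadjusted p under 0.05, edgeR gave 9 cell cycle genes higher and 0 lower in EAE, where 7.92% of all mRNAs were higher and 9.52% lower. DESeq2 called 3 genes higher (Mki67, Ccnd1 and Cdkn2b) and 0 lower at an adjusted p under 0.05, where it called 1.66% of all mRNAs higher and 3.37% lower (5.03% in all). Fitted log2 fold changes were above 0 for 26 of the 42 genes, with a median of 0.09, against 52.7% of all mRNAs and a median of 0.009. The FPKM ranges of the groups overlapped in all 43 genes, whereas over all mRNAs tested EAE lay wholly above PBS in 0.162% and PBS wholly above EAE in 0.101%.

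**Figure D2:**
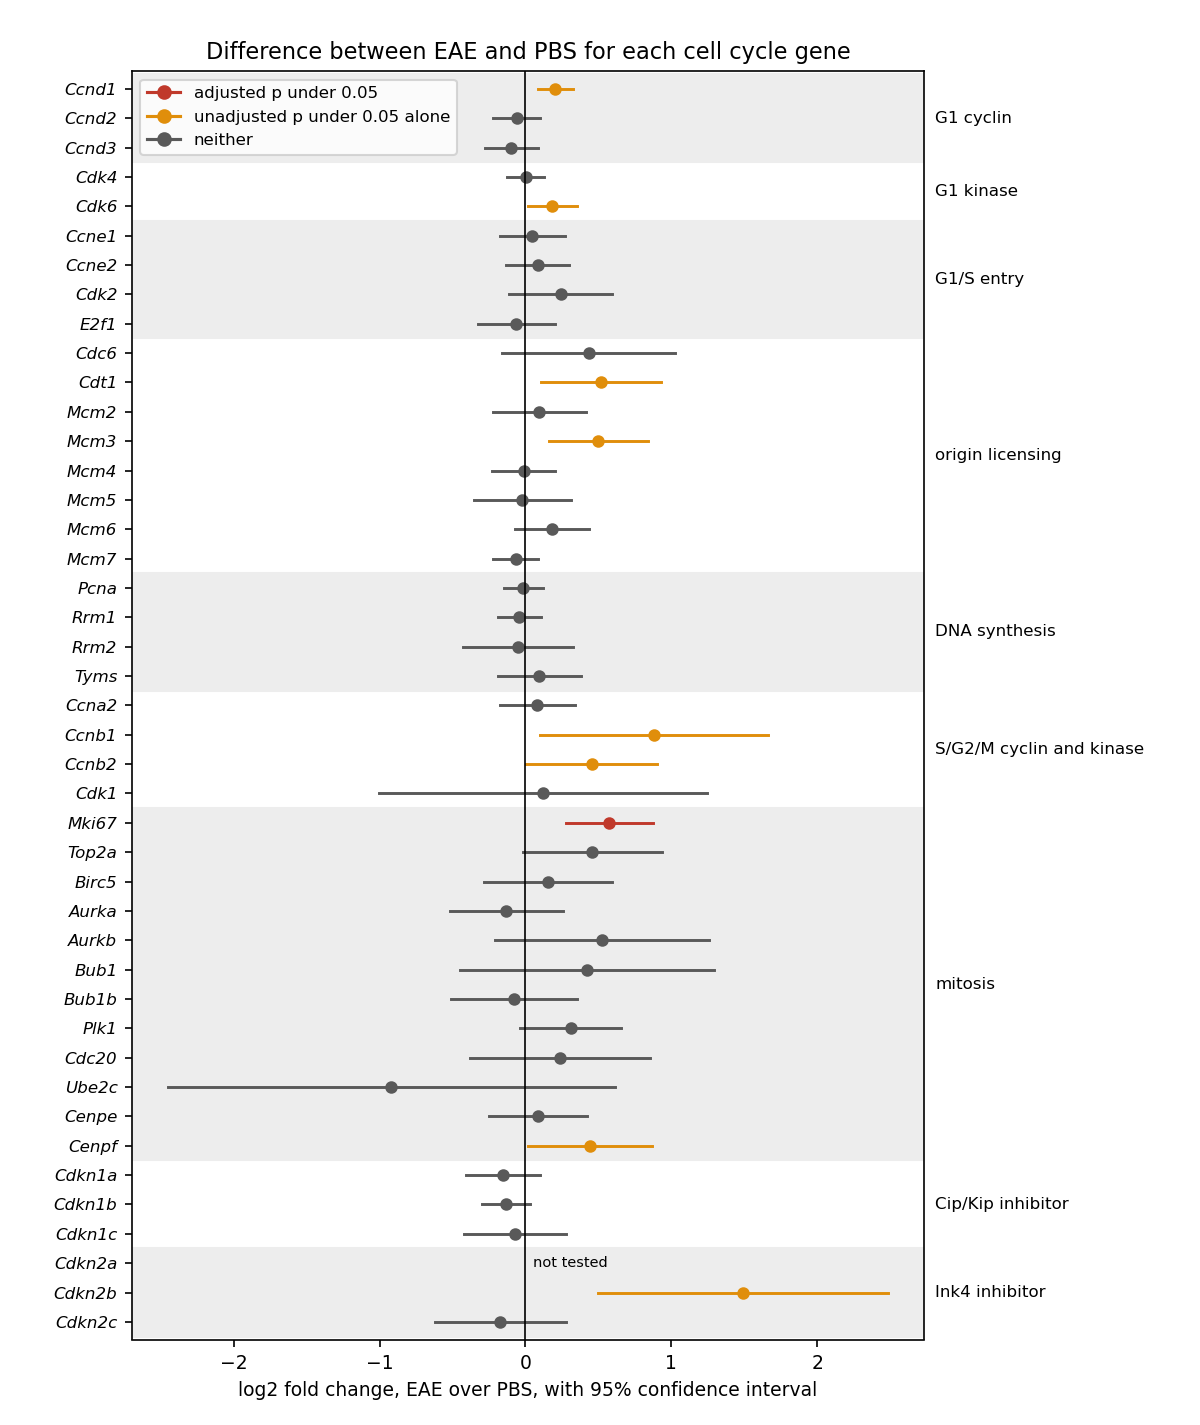
Log2 fold change of each gene (EAE over PBS, 8 mice each) from edgeR's quasi-likelihood fit, with its 95% confidence interval, grouped by role. Mki67, in red, had an adjusted p under 0.05, 8 further genes in orange had an unadjusted p under 0.05 alone, and Cdkn2a was not tested.

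No D-type cyclin or partner kinase passed the adjusted test in the main edgeR fit. In FPKM, Ccnd1, the cyclin D1 gene (GRCm38, chr7:144929931-144939925), had more EAE libraries above every PBS library than any other of the 43 genes. Its levels in EAE were 6.47 at the lowest, 7.22 at the median and 7.61 FPKM at the highest. In PBS the corresponding levels were 5.57, 5.96 and 6.54 FPKM. Of the 8 EAE libraries, 7 lay above the highest PBS library, and the exception was EAE 2. The order of EAE 6 (6.78 FPKM) and PBS 4 (6.54 FPKM) depends on the scaling, with TMM factors of 1.014 and 0.9753. The log2 fold change of Ccnd1 was 0.205 ± 0.057 (SE), a 1.15-fold difference with an edgeR adjusted p of 0.0604. Ccnd1 passed in 3 of the 16 fits that left out a single library and in 9 of the 14 other alternative fits. Mki67 passed in 6 and 10 of these. The edgeR adjusted p was 0.0145 within the 6 libraries most alike, where 24.1% of all mRNAs passed. It was 0.489 within the other 10, where 0.0745% passed. Those 6 libraries were picked for their likeness, so their spread is small by selection. Reads of Ccnd1 may include those of LTO1, annotated on the opposite strand at the same place, since the strand setting of the counting is not given in the sources used here.

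The other D-type cyclins did not reach an unadjusted p of 0.05, with log2 fold changes of -0.06 ± 0.08 for Ccnd2 and -0.10 ± 0.09 for Ccnd3 (SE). Ccnd3 was highest in EAE 5, at 7.79 FPKM, where the next EAE library had 5.73 FPKM. Cdk4 had a log2 fold change of 0.001 ± 0.061, although its FPKM median was 20.9 in EAE and 19.6 in PBS. FPKM values were scaled by library totals alone, and with that scaling the median log2 fold change of all mRNAs was 0.06 in place of 0.009. Cdk6, the second kinase partner of the D-type cyclins, ranged from 0.885 to 1.16 FPKM in EAE and from 0.775 to 1.05 FPKM in PBS. Its log2 fold change was 0.18 ± 0.08, with an unadjusted p of 0.0342 and an edgeR adjusted p of 0.241.

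At the entry into S phase, no gene reached even an unadjusted p of 0.05. Cdk2, the kinase partner of cyclin E, had a log2 fold change of 0.24 ± 0.17. Ccne1 and Ccne2, the cyclin E genes, had log2 fold changes of 0.05 ± 0.11 and 0.08 ± 0.10. E2f1, the transcription factor released by retinoblastoma protein, had -0.06 ± 0.13. The levels of these 4 genes, between 1.31 and 3.53 FPKM on average, gave standard errors small enough that none of their 95% intervals reached a 2-fold difference, the stricter rule of the study.

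Among the 8 origin licensing genes, which load the MCM helicase onto DNA in G1, log2 fold changes ran from -0.07 to 0.52, and Cdt1 and Mcm3 had an unadjusted p under 0.05. Cdt1, the loading factor, had levels of 0.703 at the lowest, 1.67 at the median and 1.98 FPKM at the highest in EAE. In PBS these levels were 0.666, 1.04 and 1.44 FPKM. The lowest EAE library was EAE 4, and 6 EAE libraries lay above every PBS library. Cdt1 had a log2 fold change of 0.52 ± 0.20 and an edgeR adjusted p of 0.17. Mcm3, a subunit of the helicase, gave 0.883, 1.43 and 1.80 FPKM in EAE against 0.77, 0.931 and 1.20 FPKM in PBS. Its log2 fold change was 0.50 ± 0.16, with an edgeR adjusted p of 0.104, and 5 EAE libraries lay above every PBS library. Without EAE 4, both genes passed, with adjusted p values of 0.0257 for Cdt1 and 0.0316 for Mcm3, in the one of 16 such fits that called either of them, where 2.81% of all mRNAs were called higher and 4.57% lower (7.38% in all). The median of the 8 genes was -0.03 within the 6 libraries most alike, with 4 above 0, and 0.34 within the other 10, with 7 above 0.

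The other subunits of the same helicase had smaller values. Mcm6 had a log2 fold change of 0.18 ± 0.12 and Mcm2 had 0.095 ± 0.154. Mcm4, Mcm5 and Mcm7 were at -0.012 ± 0.105, -0.021 ± 0.160 and -0.068 ± 0.075. Mcm5 ranged from 1.15 to 2.17 FPKM in EAE and from 1.21 to 2.21 FPKM in PBS, so the groups covered the same range. Cdc6, which acts with Cdt1, had a log2 fold change of 0.433 ± 0.285 on 10 to 41 counts per library.

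None of the 4 genes of DNA synthesis reached an unadjusted p of 0.05. Pcna ranged from 15.4 to 19.6 FPKM in EAE and from 15 to 19.5 FPKM in PBS, with a log2 fold change of -0.01 ± 0.06 and a 95% interval of -0.15 to 0.12. Rrm1 and Rrm2, the subunits of ribonucleotide reductase, had log2 fold changes of -0.04 ± 0.07 and -0.05 ± 0.18, and Tyms, thymidylate synthase, had 0.095 ± 0.137. For Pcna and Rrm1, whose counts were between 508 and 838 per library, the wider of these intervals, that of Rrm1, was -0.19 to 0.11.

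Of the 16 genes grouped as S/G2/M cyclins and kinase or as mitosis, 13 had a log2 fold change above 0, with a median of 0.27, and 4 had an unadjusted p under 0.05, all higher in EAE. The count above 0 was between 11 and 14 in every alternative fit, with the lowest median, 0.07, under limma on log2 (FPKM + 1).

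Mki67 was the gene that passed (GRCm38, chr7:135689784-135716361, minus strand). Its levels in EAE were 0.77 at the lowest, 1.14 at the median and 1.72 FPKM at the highest, from 197 to 527 counts. In PBS they were 0.619, 0.684 and 1.1 FPKM, from 169 to 318 counts. All 8 EAE libraries lay above the PBS median and 5 of them above the highest PBS library, PBS 4, which stood apart from the next PBS library at 0.796 FPKM. EAE 3 (1.13 FPKM) and EAE 4 (1.14 FPKM) lay only just above PBS 4, an order that depends on the scaling. The log2 fold change was 0.58 ± 0.14 (SE), with a 95% interval of 0.28 to 0.88, a 1.49-fold difference with an edgeR adjusted p of 0.0361. This call was not robust to the choice of libraries: it was kept in 6 of the 16 fits that left out a single library (without EAE 4, 5, 6, 7 or 8, or without PBS 4), and adjusted p reached 0.0778 in the others. Without EAE 5 and PBS 4 together, the highest libraries of their groups, the log2 fold change was 0.57 and the edgeR adjusted p 0.00451, in a fit that called 3.11% of all mRNAs higher and 4.27% lower (7.37% in all). Both libraries were picked after their Mki67 levels had been seen. Leaving out the highest library of each group narrows its spread, so this adjusted p is not evidence for the call. The difference was smaller within the 6 libraries most alike (log2 fold change 0.29, edgeR adjusted p 0.105) than within the other 10 (0.71, adjusted p 0.129), and a gene annotated on the opposite strand, Gm45240, lies at the same place.

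The B-type cyclins, the partners of Cdk1 in mitosis, followed with wider errors. Ccnb1 gave 0.133, 0.253 and 0.371 FPKM (lowest, median and highest) in EAE against 0.014, 0.128 and 0.21 FPKM in PBS. These levels rest on 8 to 26 counts in EAE and 1 to 16 counts in PBS. All 8 EAE libraries lay above the PBS median, and the log2 fold change was 0.88 ± 0.38, with an edgeR adjusted p of 0.224. Ccnb2 gave 0.692, 1.15 and 1.41 FPKM in EAE against 0.437, 0.757 and 1.14 FPKM in PBS, with a log2 fold change of 0.45 ± 0.22 and an edgeR adjusted p of 0.28. Cdk1 itself overlapped widely, from 0.0133 to 0.255 FPKM in EAE and from 0.0106 to 0.317 FPKM in PBS. Its counts were as low as 1 in both groups, and the log2 fold change of 0.12 ± 0.54 leaves a difference of 2-fold in either direction not detectable at this depth. Ccna2, cyclin A2, had 0.08 ± 0.12.

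The promoters of Mki67, Ccnb1 and Ccnb2 are shown because Mki67 passed, both cyclin B genes had an unadjusted p under 0.05, and all 3 carry elements known to time mitotic genes. The cell cycle genes homology region (CHR) is bound by the MuvB complex, and the CCAAT box by NF-Y. Each sequence gives the 250 bases before the RefSeq start (GRCm38.p6, 5′ to 3′ on the gene's strand), with CHR (TTTGAA or TTTAAA) and CCAAT letters, on either strand, in capitals. They lie at chr7:135716380-135716629 (Mki67), chr13:100786487-100786736 (Ccnb1) and chr9:70421555-70421804 (Ccnb2), all on the minus strand.
Mki67: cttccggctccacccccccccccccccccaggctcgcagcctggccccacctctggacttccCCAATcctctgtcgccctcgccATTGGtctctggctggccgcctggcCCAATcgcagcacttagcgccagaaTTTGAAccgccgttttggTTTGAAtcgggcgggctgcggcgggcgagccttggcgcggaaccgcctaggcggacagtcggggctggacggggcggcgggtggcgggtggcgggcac
Ccnb1: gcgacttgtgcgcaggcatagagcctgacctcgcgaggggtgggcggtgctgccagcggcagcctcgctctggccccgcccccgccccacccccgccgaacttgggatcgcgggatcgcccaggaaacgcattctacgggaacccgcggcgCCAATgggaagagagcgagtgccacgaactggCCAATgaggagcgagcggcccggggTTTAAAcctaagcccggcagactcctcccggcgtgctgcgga
Ccnb2: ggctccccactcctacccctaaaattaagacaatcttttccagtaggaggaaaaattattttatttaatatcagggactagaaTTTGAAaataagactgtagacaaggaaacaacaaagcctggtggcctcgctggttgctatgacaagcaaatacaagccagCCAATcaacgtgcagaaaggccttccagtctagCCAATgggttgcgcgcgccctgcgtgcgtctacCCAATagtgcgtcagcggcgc

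In Mki67, 2 TTTGAA matches lie after 3 CCAAT matches, 1 of them on the opposite strand. In Ccnb1, 2 CCAAT matches are followed by TTTAAA. In Ccnb2, TTTGAA lies upstream of 3 CCAAT matches, and a further TTTGAA lies in the 50 bases after the start, which are not printed. Promoters in the RefSeq table matched 36 of the 43 genes by symbol. Over the 300 bases from 250 before to 50 after the start, CHR letters were found in 13 of the 14 matched S/G2/M and mitotic genes (92.9%), in 6 of the 22 other matched genes (27.3%) and in 27.6% of all 32851 promoters. With TTTGAA alone, these shares were 71.4%, 9.09% and 17.9%, the form TTTAAA having been added after the sequences had been seen. CCAAT was found in 92.9%, 59.1% and 37.4%. E2F sites were searched as TTCCCGC, as the variant TTGGCGC and as the variant TTCGCGC, and these letters were found in 21.4% of the S/G2/M and mitotic genes, 45.5% of the others and 8.07% of all promoters. All searches covered both strands, and GCGCCAA, the reverse of one E2F form, also holds part of CCAAT, so that a single stretch can count for both. A gene was counted if any of its promoters held the letters, whereas the share of all promoters counted each promoter singly, so the units are unlike. These matches describe letters and not bound sites.

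The remaining mitotic genes did not reach an unadjusted p of 0.05 except Cenpf, a kinetochore protein. Cenpf gave 0.0809, 0.165 and 0.202 FPKM in EAE against 0.0747, 0.105 and 0.162 FPKM in PBS, with a log2 fold change of 0.442 ± 0.205 and an edgeR adjusted p of 0.266. Top2a, the topoisomerase that untangles replicated chromosomes, gave 0.262, 0.576 and 0.934 FPKM in EAE against 0.243, 0.373 and 0.643 FPKM in PBS. Its log2 fold change was 0.46 ± 0.23 (unadjusted p 0.0594, edgeR adjusted p 0.308), and it was -0.26 within the 6 libraries most alike. Plk1, a mitotic kinase, was at 0.31 ± 0.17, and it passed within the 6 libraries most alike (0.635, edgeR adjusted p 0.0374), as 24.1% of all mRNAs did, and was at 0.13 within the other 10. The chromosomal passenger genes Aurkb and Birc5 were at 0.52 ± 0.35 and 0.15 ± 0.21. Bub1 and Bub1b, which act in the spindle checkpoint, differed in sign, with 0.42 ± 0.42 and -0.08 ± 0.21. Cdc20, an activator of the anaphase-promoting complex, was at 0.24 ± 0.30, and Cenpe, a kinetochore motor, at 0.085 ± 0.163. Aurka, a spindle pole kinase, was at -0.130 ± 0.185. Ube2c, a ubiquitin-conjugating enzyme of mitotic exit, was at -0.92 ± 0.74, on 0 to 11 counts per library.

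**Figure D3:**
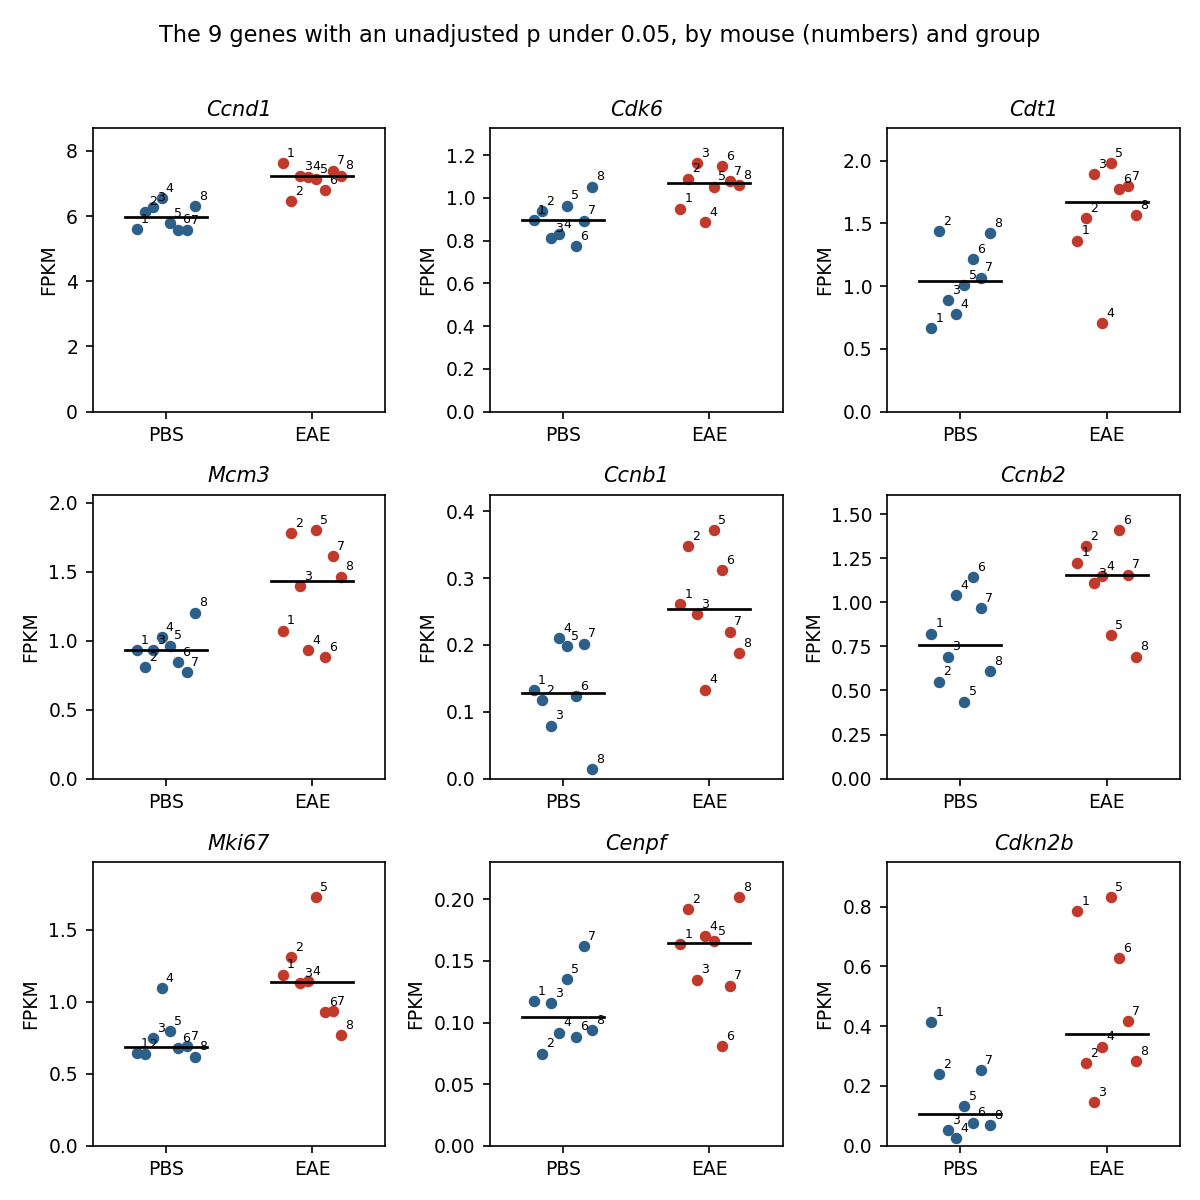
FPKM of the 9 genes with an unadjusted p under 0.05 in each mouse, with mouse numbers beside the points and a line at each group's median. All were higher in EAE in the fit, the groups overlapped in every panel, and in Ccnd1 only EAE 2 lay below the highest PBS mouse.

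All 3 Cip/Kip genes had log2 fold changes below 0, none with an unadjusted p under 0.05. Cdkn1a, which encodes p21, gave 14.1, 16.9 and 26.6 FPKM in EAE against 12.3, 19.1 and 24.2 FPKM in PBS. The highest value was that of EAE 5, where the next EAE library had 18.5 FPKM, and the log2 fold change was -0.15 ± 0.12. Without EAE 5 and PBS 4 together it was -0.33 (edgeR adjusted p 0.0157), in a fit that called 4.27% of all mRNAs lower. For Cdkn1a these were the highest EAE and the lowest PBS library, left out after the data had been seen. That adjusted p is therefore not evidence for a difference. Cdkn1b, which encodes p27, gave 6.54, 7.81 and 8.73 FPKM in EAE against 6.79, 8.59 and 8.83 FPKM in PBS. Its log2 fold change was -0.13 ± 0.08, and within the 6 libraries most alike it was -0.39 with an edgeR adjusted p of 0.000811, in a fit that called 13.1% of all mRNAs lower, and within the other 10 it was 0.01. Cdkn1c, which encodes p57, had -0.07 ± 0.17, and its sign turned under limma (0.024 and 0.004), within the 6 libraries most alike (0.33), without PBS 1 (0.022) and without PBS 6 (0.01).

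Cdkn2b, which encodes the Ink4 inhibitor p15, had the largest fitted fold among the 42 genes (GRCm38, chr4:89306299-89311039). It gave 0.146, 0.375 and 0.831 FPKM in EAE against 0.025, 0.105 and 0.414 FPKM in PBS. These levels rest on 5 to 35 counts in EAE and 1 to 15 counts in PBS. All 8 EAE libraries lay above the PBS median and 4 above the highest PBS library, PBS 1. The log2 fold change was 1.49 ± 0.48, or 2.81-fold, with an edgeR adjusted p of 0.101, and DESeq2 gave an adjusted p of 0.0426. Cdkn2b was among the mRNAs the study selected from these same libraries, so its direction here is not independent evidence. Cdkn2a, its neighbour, which encodes p16 and p19Arf, was not tested: it had 0 to 4 counts in EAE and 0 to 1 in PBS, with 5 EAE libraries and 2 PBS libraries above 0. Cdkn2c, which encodes p18, had -0.17 ± 0.22.

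Other genes of the cell cycle, from lists that hold none of the 43, are given by their counts. Of 76 other G2 and mitosis genes, 63 (82.9%) had a log2 fold change above 0, against 52.7% of all mRNAs, with a median of 0.20. Within the 6 libraries most alike, 49 of 76 were above 0 (median 0.14), and within the other 10, 62 of 76 (median 0.25). In this list, 2 genes rose and 1 fell by edgeR's adjusted p, where 0.66% of all mRNAs rose and 1.76% fell. At an unadjusted p under 0.05, 15 were higher and 2 lower, where 7.92% and 9.52% of all mRNAs were. Ccnf, cyclin F, ranged from 1.29 to 2.58 FPKM in EAE and from 1.01 to 1.64 FPKM in PBS and rose by a log2 fold change of 0.51 ± 0.13 (edgeR adjusted p 0.0404). Gas2l3, a cytoskeletal linker of late mitosis, rose by 0.52 ± 0.13 (edgeR adjusted p 0.0414), from 0.472 to 0.68 FPKM at the medians. Ckap5, a microtubule polymerase also used outside mitosis, had a log2 fold change of -0.18 ± 0.04 and fell (edgeR adjusted p 0.0297), with FPKM medians of 34.9 in EAE and 39.3 in PBS. Within the other 10 libraries, where 0.0745% of all mRNAs passed, the values were 0.40 for Ccnf, 0.385 for Gas2l3 and -0.14 for Ckap5, and none passed. When single libraries were left out, Ccnf and Gas2l3 each kept their call in 4 of the 16 fits and Ckap5 in 6.

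Of 56 other S phase and replication genes, 41 (73.2%) had a log2 fold change above 0, with a median of 0.09. At an unadjusted p under 0.05, 7 were higher and 0 lower, where 7.92% and 9.52% of all mRNAs were. The median was 0.04 within the 6 libraries most alike (32 of 56 above 0) and 0.11 within the other 10 (47 of 56). None passed edgeR's adjusted p. Among those above 0, the smallest p was that of Atad2 (0.32 ± 0.10, edgeR adjusted p 0.0941), a chromatin ATPase of replicating cells. Of 33 RB, E2F and checkpoint genes, 20 were above 0 and none passed. There, Cdc25b, a phosphatase that activates Cdk1, had 0.36 ± 0.11 (edgeR adjusted p 0.0809), and Lin9, a MuvB subunit, had -0.44 ± 0.15 (adjusted p 0.118). Of 25 p53 target genes other than Cdkn1a, 12 were above 0, with a median of -0.02. Polk had 0.19 ± 0.11 and Rrm2b had -0.160 ± 0.075, and none of the list passed.

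Clustered histone genes, whose transcripts are made in S phase and mostly lack polyadenylated tails, could be measured in these libraries of ribosome-depleted total RNA. Of 67 in the table, 63 were tested, 35 had a log2 fold change above 0 and 1 rose, Hist1h2bj. It rose by 1.08 ± 0.25 on the log2 scale (edgeR adjusted p 0.0272), with 0.642 to 1.51 FPKM in PBS and 1.7 to 2.96 FPKM in EAE. Its direction is not independent evidence either, since the study chose this gene from these libraries, and its call was kept in 10 of the 16 fits without a single library. Hist1h4i had -0.54 ± 0.17 (edgeR adjusted p 0.0972), the smallest p among those below 0. The direction of the histone list changed between sets of libraries, with a median of -0.25 and 17 of 56 above 0 within the 6 libraries most alike.

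**Figure D4:**
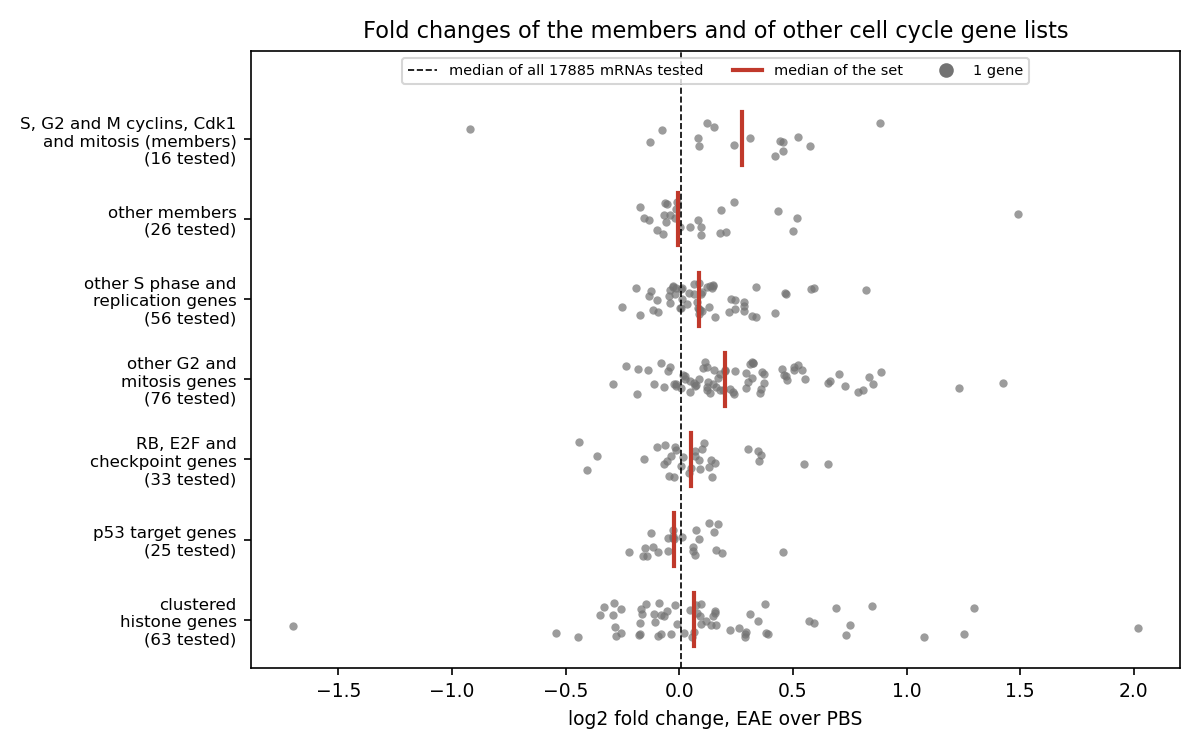
Log2 fold change (EAE over PBS) of every tested gene in the panel and in 5 other cell cycle lists, with a red line at each set's median and a dashed line at the median of all 17885 mRNAs. The 16 S/G2/M and mitotic members and the 76 other G2 and mitosis genes have medians of 0.27 and 0.20.

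High Mki67 levels and high sums of microglia markers fell in the same libraries, most of them EAE, and no correlation was computed. The highest sum, 179 FPKM, was in EAE 4 and the highest Mki67 level, 1.72 FPKM, in EAE 5. EAE 1 to EAE 5 had summed microglia markers of 153 to 179 FPKM and Mki67 levels of 1.13 to 1.72 FPKM. EAE 6, EAE 7 and EAE 8 had 114 to 118 FPKM of markers and 0.77 to 0.933 FPKM of Mki67. Among the controls, PBS 4 had both the highest marker sum, 169 FPKM, and the highest Mki67 level, 1.1 FPKM, while the other PBS libraries had 96.5 to 131 FPKM and 0.619 to 0.796 FPKM. The 6 libraries with marker sums of 153 FPKM or more held the 6 highest Mki67 levels. Top2a was between 0.564 and 0.934 FPKM in these 6 libraries and between 0.243 and 0.643 FPKM in the other 10. Within the 6 libraries most alike, marker sums were 114 to 118 FPKM in EAE and 110 to 118 FPKM in PBS, and the log2 fold change of Mki67 was 0.29.

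Relative to 100 FPKM of microglia markers, Mki67 was 0.784 ± 0.128 FPKM in EAE and 0.616 ± 0.0686 FPKM in PBS (SD, n = 8 each), a ratio chosen after the data had been seen and given without a test. In this ratio, 6 of the 8 EAE libraries lay above the highest PBS library. Of the 12 markers, 11 had a log2 fold change above 0, with a median of 0.19, and Trem2, a receptor of activated microglia, rose (0.56 ± 0.13, edgeR adjusted p 0.0282).

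**Figure D5:**
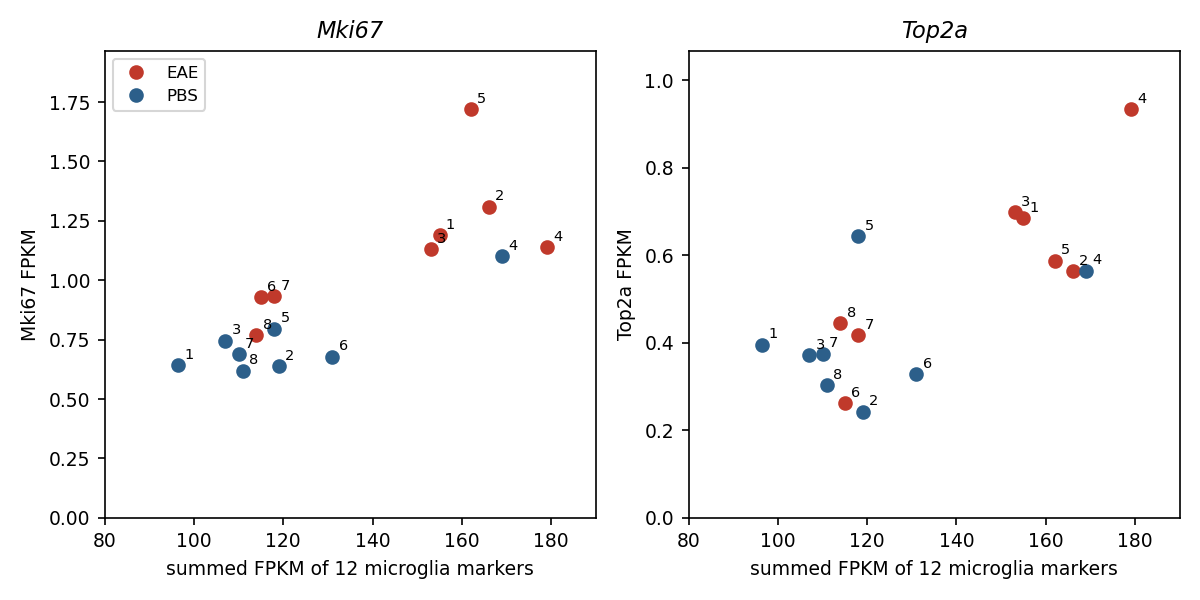
Mki67 (left) and Top2a (right) FPKM against the summed FPKM of 12 microglia markers in each library, EAE in red and PBS in blue, with mouse numbers. PBS 4 lies with EAE 1 to EAE 5 on the right, and EAE 6 to EAE 8 lie with the other PBS libraries on the left.

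Markers of other cells also differed between the groups. Precursor neutrophil markers summed to 4.36 to 11.4 FPKM in EAE and 1.61 to 4.32 FPKM in PBS. The lowest EAE sum (EAE 4) lay only just above the highest PBS sum (PBS 6). With TMM factors of 1.02 for EAE 4 and 0.9968 for PBS 6, that order depends on the scaling. Of the 9, 8 had a log2 fold change above 0 and 3 rose (Ctsg, Ngp and Ltf), where 0.66% of all mRNAs were called higher. Elane, Mpo, Prtn3, Ms4a3, Cebpe and Camp did not pass (edgeR adjusted p 0.0771 to 0.89). Ctsg rested on 0 to 6 counts in EAE and 0 to 1 in PBS. Ngp had the highest level of the 9, with medians of 5.52 FPKM in EAE and 1.69 FPKM in PBS. The study chose Ngp from these libraries, so its direction is not independent evidence. None of the 9 was at 0 in every library. Mature neutrophil markers summed to 22.8 to 57 FPKM in EAE and 11.7 to 23.5 FPKM in PBS, and 2 of the 7 rose (S100a8 and S100a9). Both sums were lowest among EAE libraries in EAE 4, whose Mki67 level of 1.14 FPKM was at the EAE median and whose Top2a level was the highest. EAE 6, EAE 7 and EAE 8, with the lowest Mki67 levels among EAE libraries, had precursor sums of 10 to 10.6 FPKM and mature sums of 51.7 to 57 FPKM. EAE 1 had the highest precursor sum, 11.4 FPKM, with 1.19 FPKM of Mki67, and EAE 3 had a mature sum of 53.8 FPKM with 1.13 FPKM of Mki67. Summed T cell markers were 2.22 to 3.85 FPKM in EAE and 2.04 to 3.03 FPKM in PBS, and none of the 8 passed. Markers of oligodendrocyte precursors, a dividing population of the brain, summed to 26.0 to 47.2 FPKM in EAE and 28.5 to 46.3 FPKM in PBS. None of the 5 had a log2 fold change above 0. Of 8 neural progenitor and neuroblast markers, Nes rose, but 6 had a log2 fold change below 0. Their sums overlapped (27.8 to 33.1 FPKM in EAE and 20.7 to 36.5 FPKM in PBS). Of 7 neuronal markers, 2 fell (Syt1 and Gad1). Of 6 astrocyte markers, Gfap rose (0.50 ± 0.12, edgeR adjusted p 0.0312). The other 5 had log2 fold changes below 0, 3 of them with an edgeR unadjusted p under 0.05. The choroid plexus gene Ttr fell (-0.88 ± 0.18, edgeR adjusted p 0.0163). Summed ependymal and choroid plexus markers were 79.2 to 139 FPKM in EAE and 95.7 to 237 FPKM in PBS. The part of these cells in the values of the cell cycle genes was not tested.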

How the data were processed

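Total RNA of sorted CD11b+/CD45int cells was sequenced from 8 EAE and 8 PBS-treated mice with stranded, ribosome-depleted libraries. The authors aligned reads to GRCm38 with HISAT2 2.1.0 and counted them with HTSeq 0.11.2, per the labels. They deposited raw counts per mRNA symbol and FPKM values. The deposited FPKM values equal count over length and library total, with no further scaling. The strand setting of the counting is not given in the sources used here, so overlapping genes on opposite strands cannot be told apart.

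The quasi-likelihood test of edgeR 4.0.16 (R 4.3.3) was applied to the counts (TMM scaling, total count of at least 16 over the 16 libraries, EAE against PBS, Benjamini-Hochberg adjustment over all 17885 mRNAs tested). Standard errors are the absolute log2 fold change over the root of F, and intervals are 95%. Unless another statistic is named, values written with ± are log2 fold changes and their SE. Levels are FPKM. On simulated EAE and PBS counts with 200 changed genes of each size, the test recovered 69.5%, 92.5% and 97.5% of those with log2 fold changes of 0.5, 1 and 1.5. The changed genes were drawn only from mRNAs above a minimum mean count. These shares therefore do not cover genes with few counts, such as Cdk1, Bub1 and Cdkn2b. The simulated libraries also held no sets of libraries more alike than others. Alternatives were other scalings and filters, DESeq2 1.42.0, edgeR's exact test, robust dispersion, limma 3.58.1 on log2 FPKM with pseudocounts of 0.1 and 1, a replicate block, leaving out each library, and fits within sets of libraries. Leaving out EAE 5 and PBS 4 together and the ratio of Mki67 to microglia markers were added after the data had been seen.

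The members and lists were chosen with earlier results of these data known. Values in each group were given for members with an unadjusted p under 0.05 and for 12 members of central role, and from other lists for genes that passed, or else the gene with the smallest p in each direction. One gene that this rule names is not reported here. Other members are given by their fold change, with group values for a few chosen after their values were seen. Gene positions are from GENCODE M21 and promoters from RefSeq, matched by symbol.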

Additional observations from a re-analysis of the deposited data

Results flagged for a closer look

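Among 84 groups of 8 libraries (42 genes in EAE and in PBS), 4 held a library whose gap to the next exceeded Dixon's critical value, where chance at 1 in 20 gives about 4.2. Ccnd3 was 7.79 FPKM in EAE 5, against 5.73 FPKM in the next EAE library. Cdkn1a was 26.6 FPKM in EAE 5, against 18.5 FPKM in the next. EAE 5 also had the highest summed erythroid markers, 885 FPKM. Mki67 was 1.1 FPKM in PBS 4, against 0.796 FPKM in the next PBS library. Cdk1 was 0.317 FPKM in PBS 7, from 31 counts, against 0.154 FPKM in the next.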

How the results depend on the processing

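The count of cell cycle genes called higher in EAE, 1 as reported, was 2 with library totals alone, with filterByExpr, within the 6 libraries most alike, with a term for the sets of libraries and without EAE 5 and PBS 4 (the last chosen after seeing the data), 3 with DESeq2's Wald test and with edgeR's exact test, and 0 within the other 10 libraries. It ranged from 0 to 4 when single libraries were left out. Calls over all mRNAs moved too, from 118 higher as reported to 226 with library totals, 123 with filterByExpr and 242 with the term for the sets. There were 1896 (11%) within the 6 libraries most alike, 8 within the other 10 and 553 (3.11%) without EAE 5 and PBS 4. DESeq2 called 297 higher and the exact test 260, and fits without single libraries called 39 to 502. The count called lower, 0, was 1 within the 6 libraries most alike (Cdkn1b) and 1 without EAE 5 and PBS 4 (Cdkn1a). These fits called 13.1% and 4.27% of all mRNAs lower. The count past the stricter rule, 0, was 1 with DESeq2, 1 with the exact test and 1 with an unadjusted p. The median log2 fold change, 0.09, was -0.005 within the 6 libraries most alike, kept its sign in the other fits and ranged from 0.06 to 0.13 (0.062 to 0.125) when single libraries were left out. Mki67 lost its call under limma with pseudocounts of 0.1 and 1 (adjusted p 0.0693 and 0.0615). The 1 gene called higher in these limma fits was Ccnd1 (adjusted p 0.0303 and 0.03). Signs turned for the following genes. Cdk4 was -0.001 with DESeq2's size factors and Wald test, -0.002 with the replicate block and -0.06 (-0.062) within the 6 libraries most alike. Mcm5 was 0.03 (0.028) with library totals, 0.03 (0.026) and 0.02 (0.018) under limma, 0.19 (0.186) within the other 10 libraries and 0.004 with the term for the sets. Pcna was 0.04 (0.037) with library totals, 0.04 (0.038 and 0.036) under limma and 0.01 (0.014) within the other 10. Cdk1 (-0.62, -0.617) and Top2a (-0.26, -0.263) turned within the 6 libraries most alike, and Cdkn1b (0.01, 0.012) within the other 10. Cdkn1c was 0.024 and 0.004 under limma and 0.33 (0.329) within the 6 libraries most alike. With single libraries left out, Cdk4 ranged from -0.02 to 0.025, Mcm5 from -0.103 to 0.078, Pcna from -0.044 to 0.02, Cdkn1c from -0.162 to 0.022 and Cdk1 from -0.064 to 0.488. The cause was not tested. Replicate numbers did not pair the libraries: deviations of same-numbered libraries correlated at -0.252 to 0.594 (median -0.178), 2 of 8 correlated best with their own number, and with a replicate block the count called higher was 1 and that called lower 0. Genes under about 40 counts per library (Ccnb1, Cdk1, Ube2c, Bub1, Aurkb, Cdc6, Cdkn2a, Cdkn2b) are limited by depth.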

Other observations

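EAE 4 and PBS 4 had the lowest summed level of the 8 origin licensing members in their groups, 16 and 15.9 FPKM, where the other libraries ranged from 18.1 to 22.8 FPKM. The same libraries had the highest summed microglia markers of their groups, 179 and 169 FPKM. Mcm7, Mcm4 and E2f1 were lowest in EAE 4 among EAE libraries and in PBS 4 among PBS libraries. Both libraries also had the highest summed oligodendrocyte precursor markers of their groups, 47.2 and 46.3 FPKM.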
